A study of Mus musculus with 20 samples.

Results

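The extracellular proteases and inhibitors of the Mmp, Adamts, Adamtsl and Timp families were followed in endothelial cells sorted from mouse sciatic nerve. Members were all rows of the deposited count tables whose gene symbol is Mmp, Adamts, Adamtsl or Timp with its number, which gave 51 genes of 55376: 23 Mmp, 19 Adamts, 5 Adamtsl and 4 Timp genes. Matrix metalloproteinases (Mmp) are zinc-dependent enzymes, made as inactive proforms and either secreted or held at the cell surface, that cut collagens, basement membrane and cell surface proteins. Adamts proteases are secreted relatives with thrombospondin repeats that cut proteoglycans or procollagen, and Adamts-like proteins (Adamtsl) keep the repeats but not the catalytic domain. Timps are secreted proteins that block the active site of these enzymes. In injured peripheral nerve, Mmp9 and Mmp2 are known for their part in opening the blood-nerve barrier and clearing matrix.

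In the Tomato experiment, cells of adult mice carried the R26-TomatoLSL reporter, switched on by Cdh5(PAC)-CreERT2, and came from intact nerve in 5 libraries and from the lesion site in the others, 5 of them taken 7 days (7 dpi) and 4 taken 14 days (14 dpi) post-injury. The cells of the separate Cherry experiment carried the Kdr-Cherry reporter and came from the lesion site at 7 dpi of mice labelled Chd5::CreER; Plxnd1fl/fl (KO, 3 libraries; Chd5 is the spelling in the design text) or of control mice labelled Plxnd1 WT (WT, 3 libraries). Plxnd1 encodes Plexin-D1, a semaphorin receptor of endothelial cells. All Tomato mice are labelled Plxnd1 WT, and no source used here says whether the Cherry WT mice carried a Cre. In both experiments nerves were pooled and digested with collagenase and other proteases, and the sorted cells were positive for the reporter and negative for the leukocyte marker CD45. KO cells were sorted by the Kdr reporter and not by the deletion, so cells that kept Plxnd1 may be among them. The design text speaks of a bridge region and the condition label of a crush, and the sources used here give neither strain nor sex nor the number of animals per library. No label ties a library to an animal, and the spread between libraries on which each p-value rests may be partly technical.

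Total counts ran from 19057029 to 34181449 per Tomato library and from 19253137 to 33793402 per Cherry library. Levels are CPM, counts scaled to a common library total, on TMM-scaled library sizes. Each library belongs to a batch labelled 1133 or 1292, both batches held every group, and batch was a term in every fit. Plxnd1 reached at most 160 CPM in KO libraries and at least 324 CPM in WT libraries, a log2 fold change of -1.23 ± 0.10 (SE; edgeR adjusted p = 0.000129). The 8 endothelial markers summed to 2260 to 5690 CPM in intact, 4730 to 7410 CPM in 7 dpi and 4010 to 5360 CPM in 14 dpi libraries, and to 7530 to 7960 CPM in KO and 7330 to 7820 CPM in WT libraries. Other cell types were also present in the Tomato sorts: 8 fibroblast markers summed to 9190 to 16700 CPM in intact, 4620 to 19900 CPM in 7 dpi and 16400 to 36000 CPM in 14 dpi libraries, against 899 to 3360 CPM in KO and 967 to 2360 CPM in WT libraries. The 8 perineurial markers summed to 4910 to 7780 CPM in intact, 549 to 1280 CPM in 7 dpi and 1720 to 3770 CPM in 14 dpi libraries. In Cherry WT libraries the markers Slc2a1 and Itgb4 of this list were at 174 to 212 CPM and 75.9 to 121 CPM. The other perineurial markers reached at most 2.62 CPM there. Whether endothelial cells gave part of the Slc2a1 and Itgb4 counts, and so of the perineurial sums and covariate, was not tested. Mural markers summed to 815 to 2160 CPM in Tomato 7 dpi, 895 to 1280 CPM in KO and 1170 to 1250 CPM in WT libraries. Schwann cell markers summed to 25.3 to 109 CPM in KO and 45.9 to 283 CPM in WT libraries. For macrophage markers the sums were 39.2 to 67.3 CPM in KO and 72 to 90.9 CPM in WT libraries, without overlap. No marker of these lists was called between KO and WT, and their part there was not tested. The plot of summed markers shows the fibroblast, perineurial, mural and macrophage sums by library. Y-linked genes, 4 in all, summed to 40.1 to 240 CPM in intact, 0 to 216 CPM in 7 dpi and 0 to 268 CPM in 14 dpi libraries, so the sex makeup of the pools varied. With their level as a covariate, 11 of 54 member results called in the Tomato experiment lost their call.

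At 7 dpi 9 of 16 tested Mmp genes and 7 of 18 tested Adamts genes were called higher than in intact nerve, while Timp2, Timp3, Timp4 and 4 of 5 Adamts-like genes were called lower. Of the 51 members, 43 passed the filter on low counts in the Tomato experiment. Of these 43, 18 were called higher at 7 dpi than in intact nerve and 8 lower (edgeR, Benjamini-Hochberg adjusted p under 0.05 over all genes). Over all 20409 genes tested, 15.7% were called higher and 16.3% lower. The other called members were Adamts5, lower, and Adamtsl2 and Timp1, higher. The median log2 fold change was 0.47 over the members and -0.10 over all genes tested. The 8 members that did not pass (Adamts13, Mmp10, Mmp1a, Mmp1b, Mmp20, Mmp27, Mmp7 and Mmp8) reached at most 1.19 CPM in any library. Markers of endothelial and of other cells moved beside these calls. Of 8 endothelial markers 6 were called higher and 1 lower at 7 dpi, with a median log2 fold change of 0.73. Of 8 fibroblast markers 6 were called higher and 1 lower at 7 dpi, with a median log2 fold change of 1.61, although their sums overlapped: Dcn had a median of 3700 CPM at 7 dpi and 8910 CPM in intact nerve, and Col1a1 one of 3840 CPM at 7 dpi and 662 CPM in intact nerve. All 8 perineurial markers were called lower. With the perineurial mean as a covariate, 3 of the 18 higher members kept their call (Adamts7, Mmp14 and Timp1) and 0 of the 8 lower ones did. The same fit called 268 genes higher and 113 lower of all 20409 tested, against 3202 and 3333 without the covariate, so calls fell widely and not in the members alone.

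**Figure D1:**
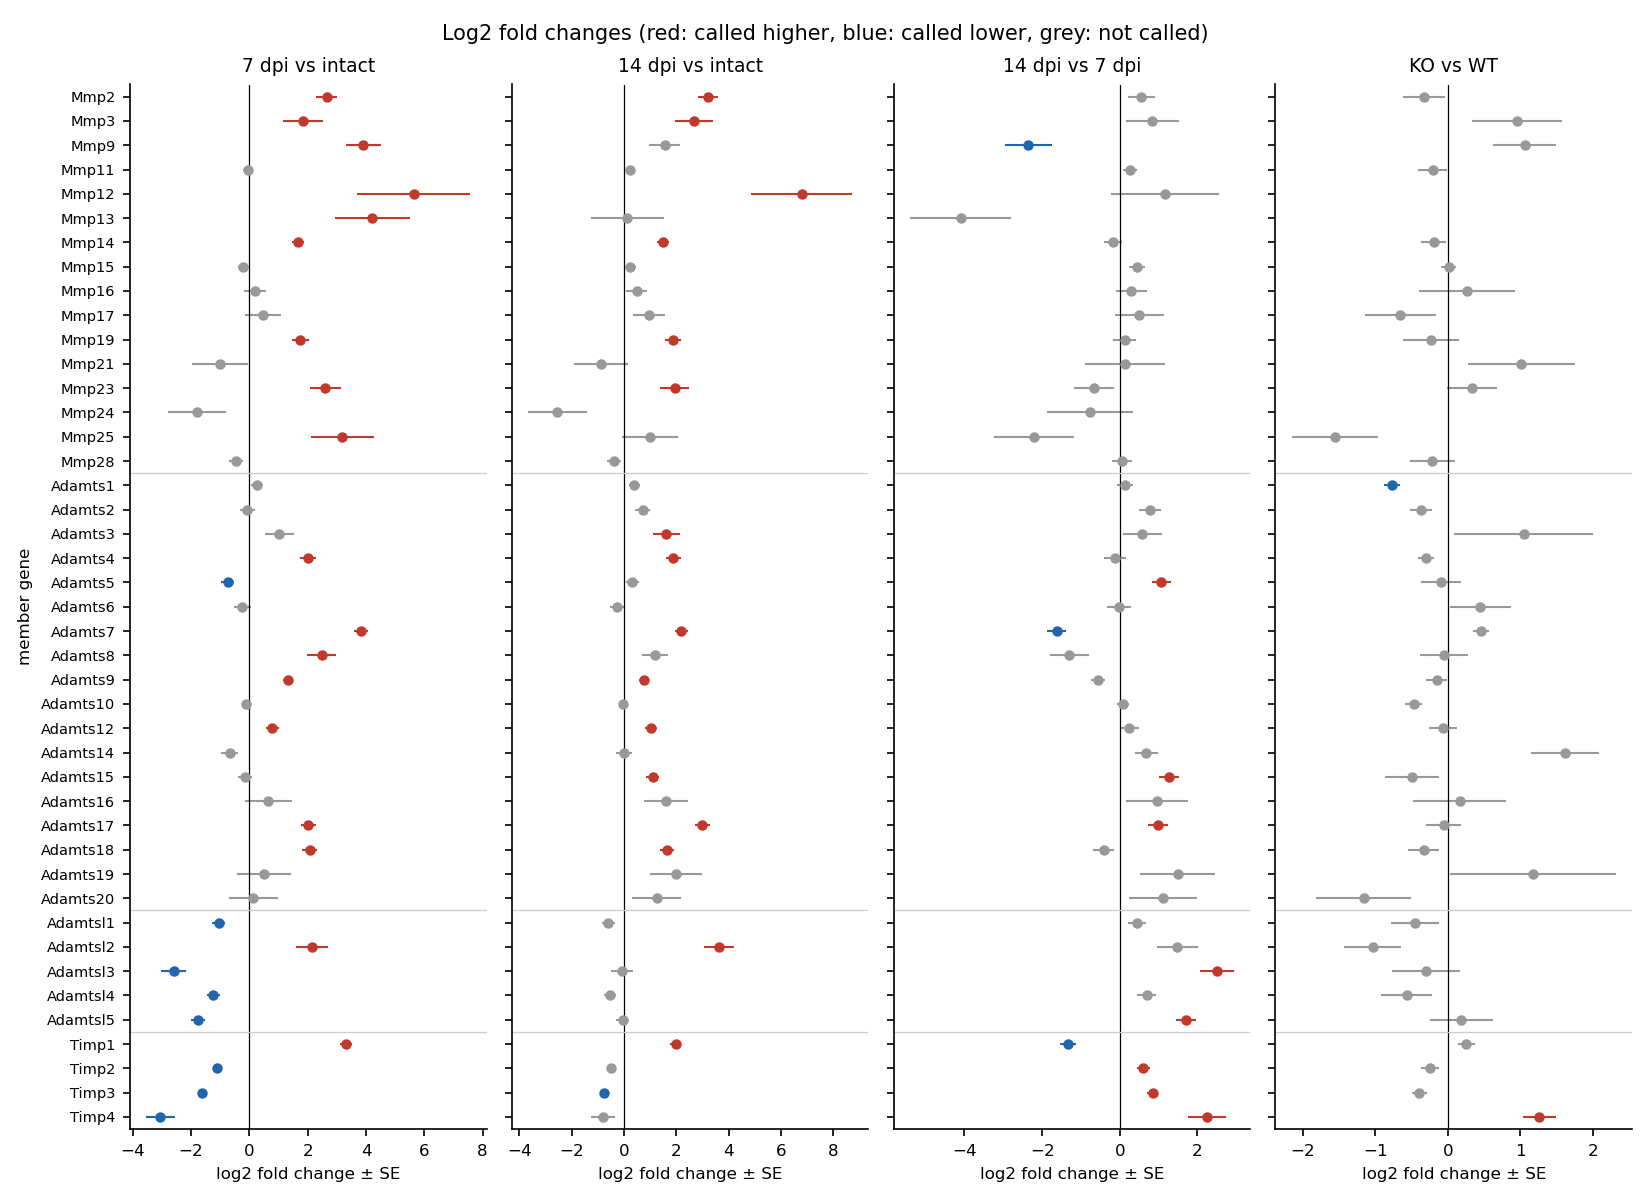
Log2 fold changes (x axis, points) with their SE (bars) of the members tested, 1 row per gene and 1 panel per comparison, with genes called higher in red, called lower in blue and not called in grey. The 9 called Mmp genes lie right of 0 at 7 dpi against intact nerve, and in KO against WT libraries the called genes are Adamts1 (-0.77) and Timp4 (1.26).

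At 14 dpi fewer genes differed from intact nerve, and 16 members were called higher and 1 lower of the 43. Over all genes tested, 6.86% were higher and 5.09% lower. By class, 6 Mmp, 8 Adamts, 1 Adamtsl and 1 Timp gene were higher and Timp3 was lower. The median log2 fold change was 0.97 over the members and 0.00 over all genes tested. Of 8 endothelial markers 2 were called higher and 1 lower, with a median log2 fold change of 0.46. Of 8 fibroblast markers 6 were called higher and 0 lower, with a median log2 fold change of 2.61. With the fibroblast mean as a covariate, 2 of the 16 higher members kept their call, Adamts7 and Adamts17, and Timp3 lost it. The same fit called 125 genes higher and 292 lower of all 20409 tested, against 1401 and 1038 without the covariate. Fibroblast sums reached 16700 CPM in intact libraries and began at 16400 CPM in 14 dpi libraries. The covariate is a log mean and not the sum. Of its markers, Lum, Col1a1, Col1a2, Col3a1, Col6a3 and Dpt did not overlap between these groups, while Dcn and Pdgfra did. This covariate and the stage can therefore hardly be told apart. Both comparisons use the same 5 intact libraries. In bulk sorts, fewer cells of a type and less RNA per cell cannot be told apart, which holds for every difference given here.

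Mmp2 and Mmp14 act together: Mmp14, a membrane-anchored collagenase, activates the proform of Mmp2, a secreted gelatinase, with Timp2 as the bridge between them. Mmp2 (chromosome 8, 92827291-92853420, GRCm38) was at 45.7, 94.9, 41.8, 43.8 and 30.7 CPM in intact nerve, at 291, 285, 188.7, 487 and 534 CPM at 7 dpi and at 248, 387, 824 and 755 CPM at 14 dpi. Every 7 dpi and 14 dpi library lay above every intact library, by 2.65 ± 0.36 (adjusted p = 2.26e-05) on the log2 scale at 7 dpi and 3.201 ± 0.38 (adjusted p = 3.05e-05) at 14 dpi. Mmp14 (chromosome 14, 54431612-54445364) was at 129, 88.0, 112, 254 and 161 CPM in intact nerve, at 446, 258, 286, 698 and 767 CPM at 7 dpi and at 179, 334, 688 and 785 CPM at 14 dpi. It rose by 1.67 ± 0.21 (adjusted p = 1.3e-05) at 7 dpi, without overlap, and by 1.503 ± 0.22 (adjusted p = 0.000225) at 14 dpi, where the lowest 14 dpi library lay within the intact range. Mmp2 and Mmp14 were higher in the 1133 libraries than in the 1292 libraries at both times, and within batches the log2 difference of Mmp2 at 7 dpi was 3.78 in batch 1133 and 2.13 in batch 1292. With the mean of the fibroblast markers as a covariate, Mmp2 was no longer called at 14 dpi (1.22, adjusted p = 0.376), nor was Mmp14 (0.88, adjusted p = 0.603). With the perineurial mean as a covariate, Mmp2 at 7 dpi was at 3.09 (adjusted p = 0.146), not called.

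Per length, these enzymes made up most of the Mmp transcript pool. The median share of Mmp2 in the summed depth-scaled counts per kilobase (FPKM) of all Mmp genes was 19.1% in intact, 40.8% in 7 dpi and 50.4% in 14 dpi libraries. Mmp14 held a median of 39.7%, 43.0% and 31.3% at the same stages. The summed Mmp level itself had a median of 81.9 FPKM in intact nerve, 247 FPKM at 7 dpi and 371 FPKM at 14 dpi. Mmp15 and Mmp11 were not called in any comparison. Mmp15, a further membrane-type enzyme, was at 104, 83.2, 102, 144 and 85.8 CPM in intact nerve, at 116, 62.2, 75.2, 111 and 83.8 CPM at 7 dpi and at 81.6, 126, 158 and 140.3 CPM at 14 dpi, with a log2 fold change of -0.21 ± 0.19 (adjusted p = 0.463) at 7 dpi. Mmp11, stromelysin-3, was at 16.4, 20.04, 15.7, 21.1 and 17.3 CPM in intact nerve, at 18.8, 18.9, 12.8, 20.7 and 17.04 CPM at 7 dpi and at 13.2, 20.5, 29.5 and 24.7 CPM at 14 dpi, with -0.04 ± 0.17 (adjusted p = 0.898). The groups of both genes overlapped in every comparison.

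**Figure D2:**
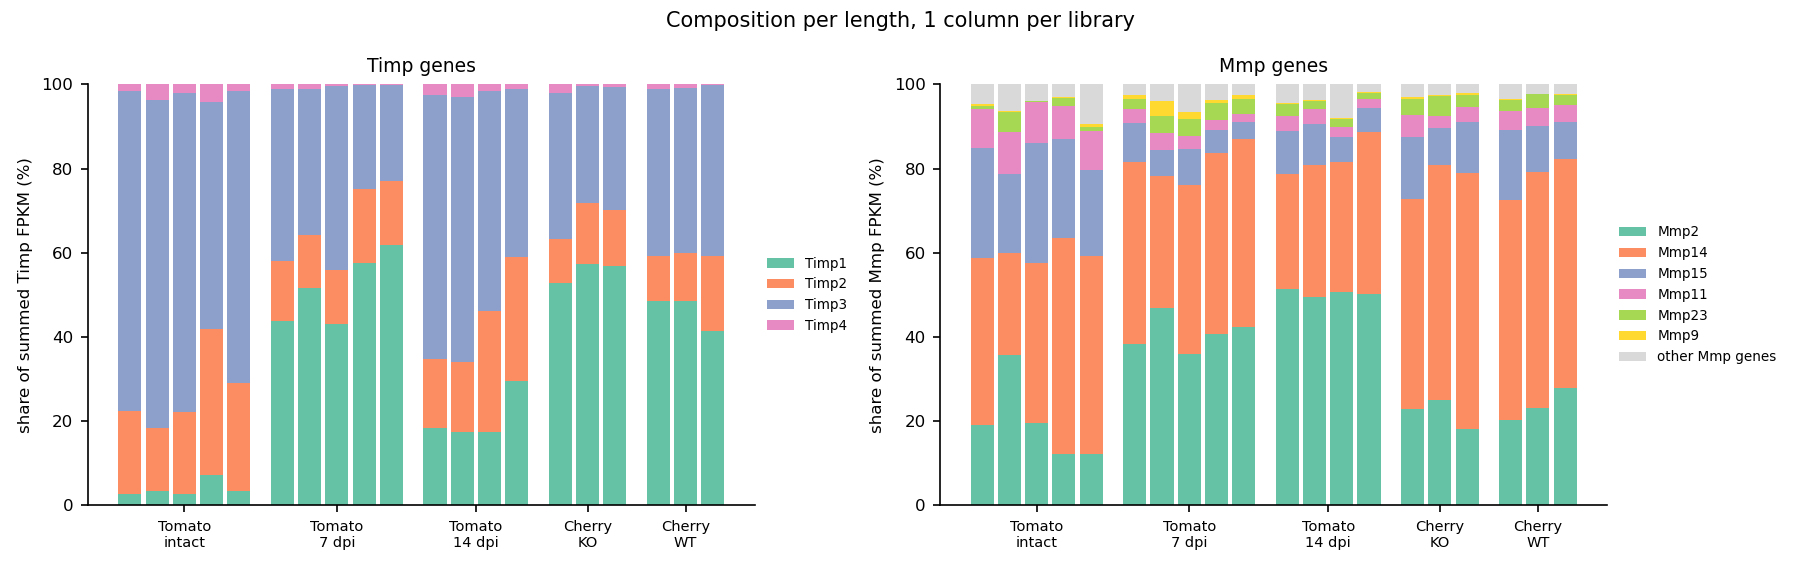
Share of each gene in the summed FPKM of its class (y axis, %), 1 column per library, for the 4 Timp genes (left) and the Mmp genes (right). Timp1 takes 42.9% to 61.9% of the Timp level at 7 dpi, against 2.69% to 7.11% in intact nerve, and Mmp2 takes 49.5% to 51.4% of the Mmp level at 14 dpi, against 12% to 35.6% in intact nerve.

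Mmp9, the other gelatinase, was at a far lower level and was called higher at 7 dpi. It was at 1.10, 0.516, 0, 1.46 and 1.42 CPM in intact nerve, at 5.93, 22.7, 8.79, 10.4 and 12.97 CPM at 7 dpi and at 0.935, 2.31, 5.00 and 2.94 CPM at 14 dpi. The 7 dpi difference was 3.91 ± 0.60 (adjusted p = 8.47e-05). The 7 dpi libraries all lay above the intact and the 14 dpi libraries, which overlapped each other, and the 14 dpi difference from intact nerve was 1.55 ± 0.59 (adjusted p = 0.107), not called. With the perineurial covariate the 7 dpi difference of Mmp9 was 4.71 (adjusted p = 0.131). Mmp23, a membrane-anchored enzyme without the usual hemopexin domain, was at 0.881, 5.89, 0.267, 3.09 and 1.15 CPM in intact nerve, at 9.05, 10.9, 9.79, 21.7 and 21.1 CPM at 7 dpi and at 6.39, 7.22, 13.9 and 9.91 CPM at 14 dpi. It was higher by 2.61 ± 0.54 (adjusted p = 0.00119) at 7 dpi and 1.94 ± 0.55 (adjusted p = 0.0282) at 14 dpi, with no intact library above 5.89 CPM and no injured library below 6.39 CPM. The 14 dpi call was lost without any of 14 dpi replicates 1, 2 or 3 or intact replicates 1, 4 or 5 (1.68 to 2.00), and without intact replicate 2, the highest of its group, the difference was 3.64 at 7 dpi and 2.94 at 14 dpi. Mmp23 was also not called in batch 1292 alone (2.14, adjusted p = 0.075) or with the perineurial covariate (1.23, adjusted p = 0.72) at 7 dpi, nor with the fibroblast covariate at 14 dpi (0.56, adjusted p = 0.957). Mmp19 was at 2.20, 4.54, 1.22, 2.58 and 4.01 CPM in intact nerve, at 8.43, 9.49, 6.04, 12.1 and 13.3 CPM at 7 dpi and at 8.15, 8.46, 18.02 and 10.8 CPM at 14 dpi. It rose by 1.74 ± 0.29 (adjusted p = 0.000196) and 1.87 ± 0.31 (adjusted p = 0.000537), again without overlap. With the perineurial covariate the 7 dpi difference was 1.41 (adjusted p = 0.413), and with the fibroblast covariate the 14 dpi one was 0.96 (adjusted p = 0.734), neither called.

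**Figure D3:**
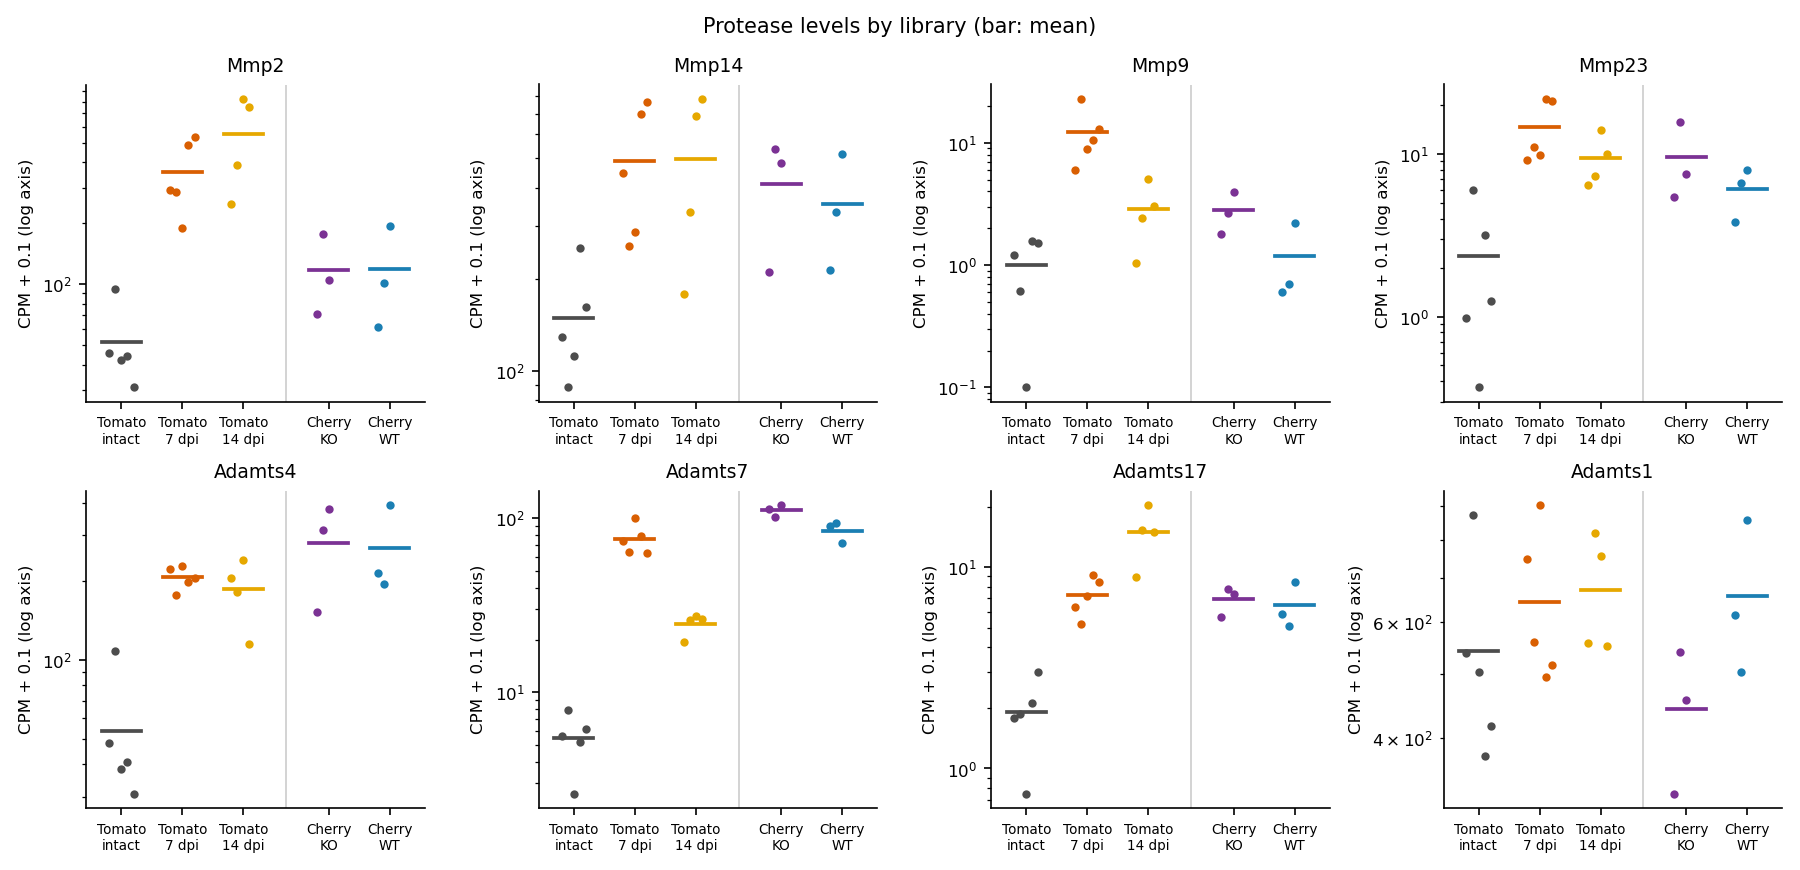
Levels of 8 proteases (y axis, CPM + 0.1, log axis) by library, with the mean of each group as a bar. Adamts7 separates all stages, with 2.51 to 7.85 CPM in intact nerve, 63.0 to 100.4 CPM at 7 dpi and 19.4 to 27.2 CPM at 14 dpi, while Adamts1 overlaps between them.

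The Mmp cluster on chromosome 9 (7272514-7699585, 427 kb) holds 10 members, among them the collagenases, stromelysins and macrophage elastase. Only Mmp3, Mmp12 and Mmp13 passed the filter there, and all 3 stayed low in most libraries. Genes of this cluster are known for an AP-1 site close to the transcription start, so the promoters of these 3 genes are shown from 250 bases before to 50 bases after the start (RefSeq, GRCm38.p6, plus strand). Capitals mark matches to the AP-1 motif TGANTCA, searched on both strands.
Mmp3: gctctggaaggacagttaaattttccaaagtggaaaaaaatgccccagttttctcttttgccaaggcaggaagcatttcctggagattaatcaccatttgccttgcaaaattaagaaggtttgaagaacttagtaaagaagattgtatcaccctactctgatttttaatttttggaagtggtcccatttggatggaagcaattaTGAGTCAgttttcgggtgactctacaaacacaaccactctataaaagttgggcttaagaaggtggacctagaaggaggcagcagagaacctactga
Mmp12: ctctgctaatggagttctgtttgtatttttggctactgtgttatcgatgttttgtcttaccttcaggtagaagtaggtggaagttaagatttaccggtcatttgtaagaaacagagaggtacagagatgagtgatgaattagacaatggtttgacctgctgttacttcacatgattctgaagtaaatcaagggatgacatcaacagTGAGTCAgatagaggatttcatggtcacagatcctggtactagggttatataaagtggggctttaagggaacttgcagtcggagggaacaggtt
Mmp13: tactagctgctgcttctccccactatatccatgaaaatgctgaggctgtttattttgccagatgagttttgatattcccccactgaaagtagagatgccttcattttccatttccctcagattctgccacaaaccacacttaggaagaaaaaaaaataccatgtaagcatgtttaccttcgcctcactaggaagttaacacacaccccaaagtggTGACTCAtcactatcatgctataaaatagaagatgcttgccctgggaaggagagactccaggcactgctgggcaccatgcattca
The windows are chr9:7445572-7445871 for Mmp3, chr9:7347124-7347423 for the downstream of 2 Mmp12 starts, the one with a match, and chr9:7272264-7272563 for Mmp13, and the motif began 46, 44 and 35 bases before the start. Of 36 members with an entry in the promoter table, 8 held the motif (Mmp10, Mmp12, Mmp13, Mmp1a, Mmp1b, Mmp20, Mmp3 and Mmp7), all of them in this cluster. Over all 32851 windows of the table, 7.81% held it. A match is a description of the sequence, and 5 of these 8 genes did not pass the count filter.

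Mmp3, stromelysin-1, was at 0.514, 2.27, 0, 0.306 and 1.22 CPM in intact nerve, at 1.99, 1.97, 5.29, 2.18 and 3.66 CPM at 7 dpi and at 2.75, 6.12, 7.94 and 5.10 CPM at 14 dpi. It was called higher at 7 dpi (1.84 ± 0.67, adjusted p = 0.0468) and at 14 dpi (2.68 ± 0.71, adjusted p = 0.0199). The 7 dpi call was lost in 11 of 14 fits that left out 1 library (1.48 to 1.96) and the 14 dpi call in 3, without intact replicate 4 or 14 dpi replicates 2 or 3 (2.37 to 2.58). Without intact replicate 2, the highest of its group, the differences were 2.67 and 3.42. The fibroblast, perineurial, macrophage and Y gene covariates and each batch alone also ended the 7 dpi call of Mmp3 (-1.97 to 2.03). Its 14 dpi call was lost with the same covariates and in batch 1292 alone (1.31 to 3.15). Mmp13, collagenase-3, was at 0, 0, 0, 0.102 and 0.559 CPM in intact nerve, at 0.818, 1.62, 10.2, 0.554 and 2.15 CPM at 7 dpi and at 0.519, 0.151, 0 and 0.0718 CPM at 14 dpi. It was called at 7 dpi (4.22 ± 1.30, adjusted p = 0.0191), where replicate 3 stood apart from the other libraries. Without that library the difference was 3.44 (adjusted p = 0.0641), and the call was also lost without intact replicates 1, 2 or 3 or 7 dpi replicate 5 (3.58 to 4.34), while without intact replicate 5 the difference was 6.42. The perineurial (-2.77) and Y gene (4.99) covariates and batch 1133 alone (2.1) also ended the call of Mmp13. Mmp25, a GPI-anchored enzyme outside the cluster, was at 0, 0, 0, 0.408 and 0.724 CPM in intact nerve, at 1.02, 1.82, 0.916, 1.39 and 1.05 CPM at 7 dpi and at 0.104, 0.491, 0.301 and 0.287 CPM at 14 dpi. Its 7 dpi libraries lay above all others, and it was called there (3.19 ± 1.08, adjusted p = 0.0314). The call was lost without intact replicates 1, 2 or 3 or 7 dpi replicates 2 or 4 (2.64 to 3.59), and without intact replicate 5 the difference was 3.78. Library size alone (3.05), no batch term (2.39) and batch 1133 alone (1.15) also ended the call of Mmp25. So did the fibroblast (5.17), perineurial (3.05) and Y gene (4.4) covariates.

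Mmp12, macrophage elastase, was high in 1 library of each injured group. It was at 0, 0.0516, 0, 0.306 and 0.428 CPM in intact nerve, at 0, 0.590, 1.42, 26.2 and 0.756 CPM at 7 dpi and at 0.312, 0.680, 115 and 0.574 CPM at 14 dpi. The fitted log2 fold changes were 5.63 ± 1.94 (adjusted p = 0.0445) at 7 dpi and 6.80 ± 1.93 (adjusted p = 0.0401) at 14 dpi. The same libraries, 7 dpi replicate 4 and 14 dpi replicate 3, both of batch 1133, held the most macrophage RNA: the 8 macrophage markers summed to 330 and 1050 CPM there, against 52.9 to 67.7 CPM in the other 7 dpi and 36.2 to 58.6 CPM in the other 14 dpi libraries and 24.8 to 42.0 CPM in intact nerve. Without these 2 libraries, an alternative chosen after the data were seen, the differences were 3.18 (adjusted p = 0.114) and 2.63 (adjusted p = 0.31), and with the macrophage mean as a covariate they were 1.67 (adjusted p = 0.113) and 0.50 (adjusted p = 0.823). The 7 dpi call was lost in 10 of 14 fits that left out 1 library and the 14 dpi call in 9, with 4.78 without 7 dpi replicate 4 and 3.35 without 14 dpi replicate 3. It was 4.94 at 7 dpi without 14 dpi replicate 3 and 6.49 without 7 dpi replicate 5. Neutrophil markers, whose cells carry Mmp8, Mmp9 and Mmp25, summed to no more than 5.90 CPM in any Tomato library.

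**Figure D4:**
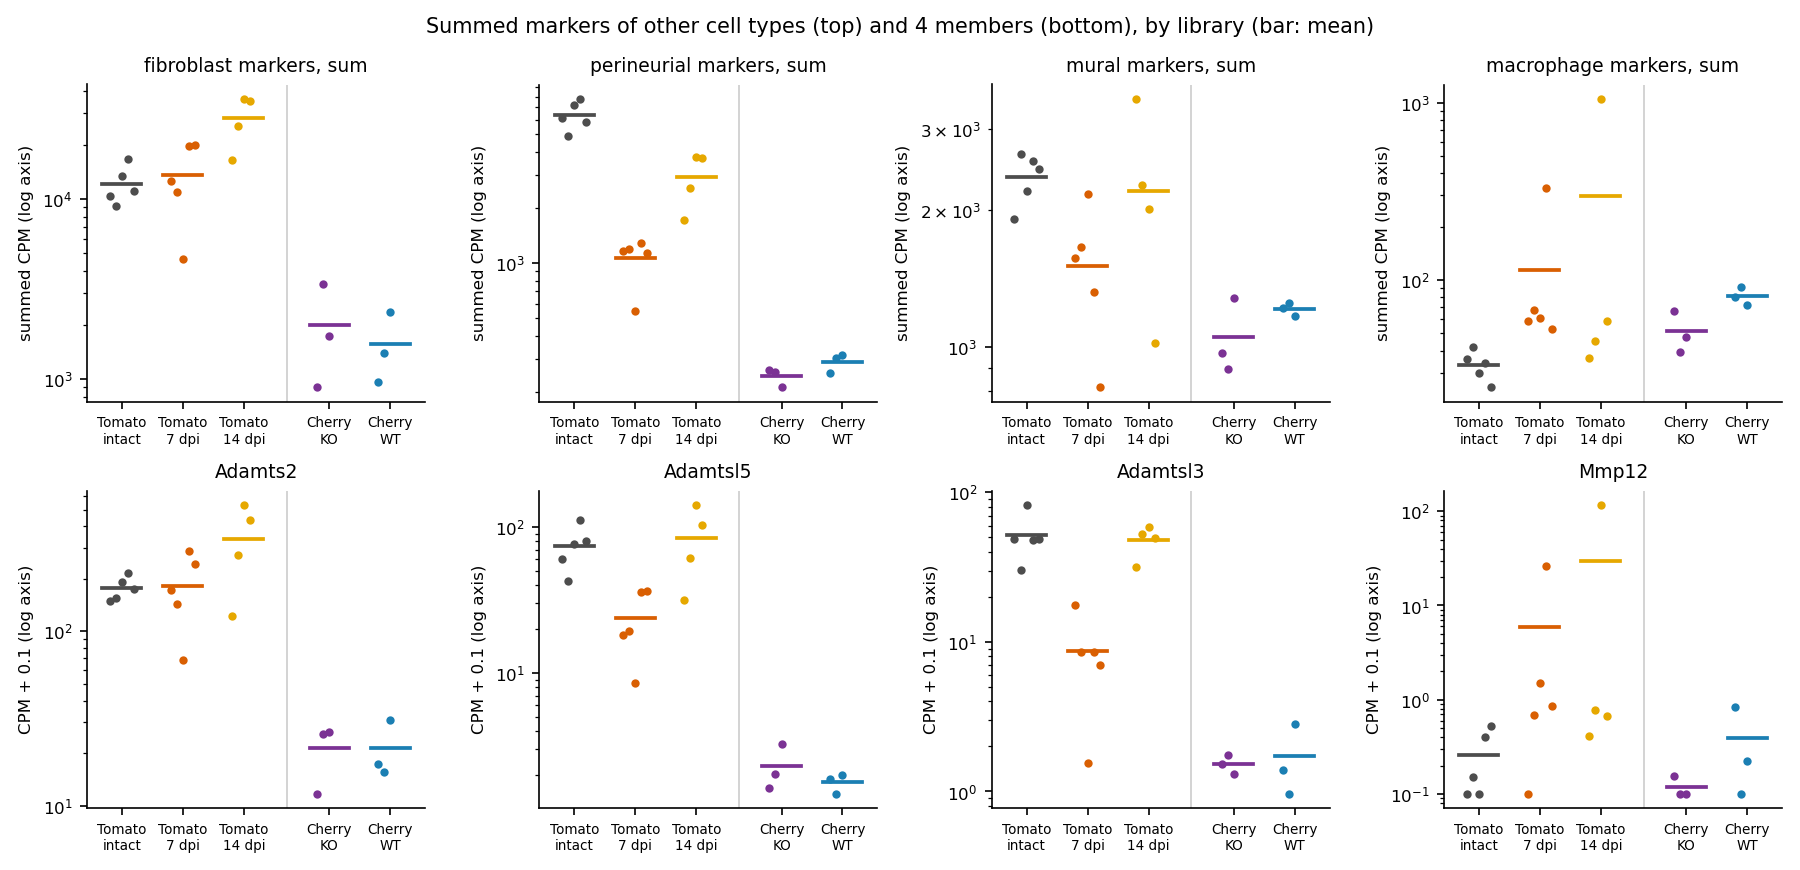
Summed CPM of 8 markers each of fibroblasts, perineurial cells, mural cells and macrophages (top row) and CPM + 0.1 of Adamts2, Adamtsl5, Adamtsl3 and Mmp12 (bottom row) by library, on log axes, with group means as bars. The libraries with 330 and 1050 CPM of macrophage markers are those with 26.2 and 115 CPM of Mmp12, and Adamts2 and Adamtsl5 are lower in every Cherry library than in every Tomato library, as are the fibroblast and perineurial sums.

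Among the Adamts proteases that cut aggrecan and versican, Adamts4 rose after injury while Adamts1, the most abundant, was not called. Adamts1 was at 538, 873, 503, 375 and 417 CPM in intact nerve, at 748, 558, 902, 495 and 516 CPM at 7 dpi and at 556, 818, 754 and 551 CPM at 14 dpi, with 0.26 ± 0.19 (adjusted p = 0.356) at 7 dpi and 0.40 ± 0.21 (adjusted p = 0.268) at 14 dpi. Per length it held a median of 61.8% of the summed Adamts FPKM in intact, 51.5% in 7 dpi and 50.4% in 14 dpi libraries. Adamts4, aggrecanase-1 (chromosome 1, 171250421-171260637), was at 48.1, 109, 38.3, 40.8 and 30.7 CPM in intact nerve, at 224, 178, 229.9, 199.8 and 207 CPM at 7 dpi and at 206, 182, 242 and 116 CPM at 14 dpi. Every injured library lay above every intact library, by 2.01 ± 0.28 (adjusted p = 2.89e-05) and 1.88 ± 0.29 (adjusted p = 0.000302). With the perineurial covariate the 7 dpi difference was 1.15 (adjusted p = 0.463), and with the fibroblast covariate the 14 dpi one was 1.21 (adjusted p = 0.468), neither called. Its median share of the summed Adamts FPKM was 5.71% in intact, 17.2% in 7 dpi and 14.0% in 14 dpi libraries. Adamts5, aggrecanase-2, went the other way at 7 dpi. It was at 20.6, 30.4, 31.1, 19.4 and 29.8 CPM in intact nerve, at 14.5, 19.9, 14.6, 13.9 and 15.3 CPM at 7 dpi and at 17.4, 33.9, 50.6 and 31.1 CPM at 14 dpi, with a log2 fold change of -0.75 ± 0.23 (adjusted p = 0.0188) at 7 dpi, a call lost without intact replicate 3 (-0.67, adjusted p = 0.0521), and not called at 14 dpi (0.32 ± 0.24). The 7 dpi call of Adamts5 was also lost with the fibroblast covariate (-0.99, adjusted p = 0.0561), the perineurial covariate (-0.37, adjusted p = 0.804), in batch 1133 alone (-0.71, adjusted p = 0.258) and in batch 1292 alone (-0.73, adjusted p = 0.0628).

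Adamts9, a versican protease known from vascular endothelium, was at 27.9, 33.1, 22.3, 17.5 and 14.5 CPM in intact nerve, at 59.3, 73.6, 81.8, 35.5 and 40.4 CPM at 7 dpi and at 55.6, 43.7, 32.7 and 17.5 CPM at 14 dpi. It rose by 1.32 ± 0.17 (adjusted p = 1.58e-05) at 7 dpi without overlap and by 0.75 ± 0.18 (adjusted p = 0.00949) at 14 dpi with overlap. Without the batch term the 14 dpi call was lost (0.70, adjusted p = 0.246). It was also lost with the fibroblast (1.05, adjusted p = 0.275), perineurial (0.48, adjusted p = 0.36) and macrophage (0.60, adjusted p = 0.0869) covariates and in batch 1133 alone (0.71, adjusted p = 0.324). The perineurial covariate ended the 7 dpi call (0.69, adjusted p = 0.476). Adamts15 was at 9.54, 14.4, 5.26, 8.57 and 8.65 CPM in intact nerve, at 7.46, 8.07, 9.04, 7.44 and 9.30 CPM at 7 dpi and at 19.7, 15.8, 29.1 and 15.0 CPM at 14 dpi. It showed -0.17 ± 0.24 (adjusted p = 0.675) at 7 dpi and was called higher at 14 dpi (1.10 ± 0.25, adjusted p = 0.00813), where all libraries lay above the intact range. That call was lost with the fibroblast (0.97, adjusted p = 0.651), perineurial (0.71, adjusted p = 0.331) and macrophage (0.81, adjusted p = 0.0773) covariates. It was lost too in batch 1133 alone (1.43, adjusted p = 0.0533) and in batch 1292 alone (0.86, adjusted p = 0.156). Adamts8, described with Adamts1 as an inhibitor of vessel growth, was at 0.514, 0.723, 0.152, 0.442 and 0.757 CPM in intact nerve, at 2.25, 4.18, 2.67, 1.15 and 4.01 CPM at 7 dpi and at 0.727, 1.25, 0.993 and 1.79 CPM at 14 dpi. It was called at 7 dpi (2.48 ± 0.48, adjusted p = 0.000801), without overlap, and not at 14 dpi (1.18 ± 0.50). The 7 dpi call of Adamts8 was lost with the perineurial covariate (1.76, adjusted p = 0.535) and in batch 1133 alone (2.14, adjusted p = 0.206).

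Adamts7 and Adamts12, which can degrade the cartilage oligomeric matrix protein Comp, rose by different amounts. Adamts7 (chromosome 9, 90163069-90208071, overlapping Tbc1d2b on the other strand) was at 5.50, 7.85, 2.51, 5.10 and 6.05 CPM in intact nerve, at 74.0, 64.0, 100.4, 79.4 and 63.0 CPM at 7 dpi and at 19.4, 26.1, 27.2 and 26.4 CPM at 14 dpi. The stages did not overlap: it rose by 3.82 ± 0.24 (adjusted p = 8.63e-09) at 7 dpi, the greatest fold among Adamts members, and by 2.20 ± 0.24 (adjusted p = 1.57e-05) at 14 dpi. Within batches the 7 dpi difference was 3.55 in batch 1133 and 3.88 in batch 1292. Adamts12 was at 10.7, 24.7, 9.90, 12.3 and 12.7 CPM in intact nerve, at 25.6, 25.3, 32.8, 19.9 and 18.4 CPM at 7 dpi and at 29.6, 24.4, 35.7 and 21.6 CPM at 14 dpi. It rose by 0.79 ± 0.23 (adjusted p = 0.0147) and 1.03 ± 0.24 (adjusted p = 0.00986), with intact replicate 2 inside the injured range. At 7 dpi Adamts12 was not called with the fibroblast (0.86, adjusted p = 0.0776), perineurial (-0.29, adjusted p = 0.831) or Y gene (0.62, adjusted p = 0.182) covariate, nor in batch 1133 (0.64, adjusted p = 0.298) or batch 1292 alone (0.91, adjusted p = 0.0513). At 14 dpi it was not called with the fibroblast (1.19, adjusted p = 0.417), perineurial (0.58, adjusted p = 0.383) or macrophage (0.77, adjusted p = 0.0861) covariate, nor in batch 1292 alone (0.83, adjusted p = 0.161). Comp itself fell, by -2.20 ± 0.50 (adjusted p = 0.00248) at 7 dpi and -1.84 ± 0.53 (adjusted p = 0.0295) at 14 dpi.

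Adamts17 and Adamts18 were called at both times. Adamts17, linked to fibrillin microfibrils in humans, was at 1.69, 1.76, 0.647, 2.01 and 2.93 CPM in intact nerve, at 6.24, 5.12, 7.12, 9.02 and 8.37 CPM at 7 dpi and at 8.83, 15.2, 20.2 and 14.9 CPM at 14 dpi. It rose by 2.02 ± 0.26 (adjusted p = 1.64e-05) at 7 dpi and 3.0 ± 0.28 (adjusted p = 3.08e-06) at 14 dpi, without overlap with intact nerve. Adamts18 was at 2.64, 5.78, 2.29, 2.35 and 2.01 CPM in intact nerve, at 16.1, 14.2, 20.4, 6.65 and 7.88 CPM at 7 dpi and at 11.9, 7.48, 7.10 and 8.18 CPM at 14 dpi. It rose by 2.06 ± 0.27 (adjusted p = 1.67e-05) and 1.65 ± 0.28 (adjusted p = 0.000703), also without overlap. With the perineurial covariate the 7 dpi differences were 1.15 (adjusted p = 0.425) for Adamts17 and 0.85 (adjusted p = 0.535) for Adamts18, neither called. At 14 dpi Adamts18 was not called with the fibroblast (2.03, adjusted p = 0.0986) or the perineurial covariate (1.14, adjusted p = 0.102). Adamts10, a partner of fibrillin-1, was at 111, 93.1, 91.7, 87.0 and 99.3 CPM in intact nerve, at 79.0, 90.3, 97.6, 81.3 and 94.7 CPM at 7 dpi and at 74.99, 91.0, 129 and 85.7 CPM at 14 dpi. No comparison called it, and its 7 dpi value was -0.12 ± 0.14 (adjusted p = 0.578).

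The procollagen N-propeptidases Adamts2, Adamts3 and Adamts14 trim fibrillar collagens before they assemble. Adamts2 was at 148.5, 156, 190.8, 217 and 175 CPM in intact nerve, at 173, 142, 68.0, 288 and 243 CPM at 7 dpi and at 122, 275, 528 and 436 CPM at 14 dpi, with -0.07 ± 0.26 (adjusted p = 0.879) at 7 dpi and 0.71 ± 0.28 (adjusted p = 0.125) at 14 dpi, neither called. Adamts14 was at 27.3, 17.8, 25.8, 38.9 and 29.6 CPM in intact nerve, at 15.9, 18.7, 5.41, 24.3 and 26.6 CPM at 7 dpi and at 15.0, 21.2, 59.5 and 34.1 CPM at 14 dpi, with -0.68 ± 0.28 (adjusted p = 0.0713) and 0.00 ± 0.30 (adjusted p = 0.998). Both varied over a wide range among injured libraries, and in each injured group replicates of batch 1133 were higher. Adamts3, which also processes the lymphatic growth factor Vegfc, was at 1.43, 0.878, 0.914, 0.170 and 2.40 CPM in intact nerve, at 1.89, 2.31, 2.42, 1.86 and 3.402 CPM at 7 dpi and at 1.61, 3.70, 4.60 and 5.24 CPM at 14 dpi. It was called at 14 dpi (1.62 ± 0.51, adjusted p = 0.0491) and lost that call in 12 of 14 fits without 1 library (1.43 to 1.79). The call was also lost with RLE scaling, library size alone, the stricter count filter or no batch term. Every covariate, each batch alone and the 2 groups alone ended it too (1.29 to 2.07 over all these). The tested members not called anywhere and under 20 CPM in each group mean were Adamts6, Adamts16, Adamts19, Adamts20, Mmp16, Mmp17, Mmp21, Mmp24 and Mmp28, at no more than 6.68 CPM in any library.

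Adamts-like proteins bind fibrillin microfibrils and matrix and have no protease activity. At 7 dpi Adamtsl1, Adamtsl3, Adamtsl4 and Adamtsl5 fell and Adamtsl2 rose. Adamtsl5, the most abundant per length with a median of 55.9% of the class in intact nerve, was at 60.0, 42.9, 76.3, 112 and 80.5 CPM in intact nerve, at 18.1, 19.4, 8.46, 35.5 and 36.4 CPM at 7 dpi and at 31.4, 61.4, 140.4 and 104 CPM at 14 dpi. Every 7 dpi library lay below every intact library, with a log2 fold change of -1.76 ± 0.25 (adjusted p = 4.17e-05), and 14 dpi was at -0.06 ± 0.26 from intact nerve. Adamtsl3 was at 48.6, 30.1, 81.7, 47.9 and 48.8 CPM in intact nerve, at 17.5, 8.41, 1.46, 8.51 and 6.95 CPM at 7 dpi and at 31.8, 52.5, 58.5 and 49.5 CPM at 14 dpi. It fell by 2.60 ± 0.42 (adjusted p = 0.000153) at 7 dpi without overlap and stood at -0.09 ± 0.42 at 14 dpi. Adamtsl4 was at 57.3, 52.0, 56.0, 86.9 and 75.6 CPM in intact nerve, at 27.2, 28.5, 10.3, 43.4 and 33.5 CPM at 7 dpi and at 23.6, 38.2, 72.1 and 68.2 CPM at 14 dpi, with -1.23 ± 0.23 (adjusted p = 0.000451) at 7 dpi and -0.54 ± 0.24 at 14 dpi. Intact and 7 dpi libraries were separate for these 3 genes, while 14 dpi libraries reached into the intact range. Adamtsl1 was at 23.8, 29.4, 25.8, 13.4 and 19.1 CPM in intact nerve, at 8.69, 13.7, 9.75, 8.31 and 13.1 CPM at 7 dpi and at 10.1, 13.8, 17.1 and 16.6 CPM at 14 dpi, with a log2 fold change of -1.04 ± 0.23 (adjusted p = 0.0017) at 7 dpi.

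The falls of Adamts-like genes and of Timp2, Timp3 and Timp4 ran beside those of perineurial markers, of which 8 of 8 were called lower at 7 dpi and none was at 0 in any Tomato library. Of 8 mural markers 6 were lower and 0 higher (median log2 fold change -0.99), with sums of 815 to 2160 CPM at 7 dpi and 1910 to 2650 CPM in intact nerve. Of 8 Schwann cell markers 3 were lower and 1 higher, with sums of 32.7 to 95.2 CPM at 7 dpi and 198 to 468 CPM in intact nerve. The part of mural and Schwann cells in these falls was not tested. Once the perineurial mean was added as a covariate, the signs of Adamtsl3 (1.42, adjusted p = 0.299), Adamtsl4 (0.76, adjusted p = 0.354) and Adamtsl5 (0.50, adjusted p = 0.577) turned round. Each of the 8 perineurial markers, and so their log mean, was lower in every 7 dpi than in every intact library. This covariate and the stage therefore cannot be told apart. Adamtsl1 was not called with this covariate (-0.83, adjusted p = 0.537) or in batch 1133 alone (-0.56, adjusted p = 0.419). Adamtsl2, a regulator of TGF-beta release in human disease, was at 0.147, 2.48, 0.419, 0.578 and 3.09 CPM in intact nerve, at 3.37, 5.16, 1.58, 10.6 and 11.2 CPM at 7 dpi and at 10.8, 13, 28.6 and 18.2 CPM at 14 dpi. It rose by 2.15 ± 0.55 (adjusted p = 0.00607) at 7 dpi and by 3.63 ± 0.58 (adjusted p = 0.000432) at 14 dpi, and without intact replicate 2 these were 2.81 and 4.30. With the fibroblast covariate neither was called (1.04, adjusted p = 0.438 at 7 dpi and 1.72, adjusted p = 0.756 at 14 dpi). The 7 dpi call was also lost with the perineurial covariate (1.46, adjusted p = 0.687) and in batch 1292 alone (1.81, adjusted p = 0.13).

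The 4 Timps moved in different directions. The soluble inhibitor Timp1 rose, while Timp2, which also carries pro-Mmp2 to Mmp14, the matrix-bound Timp3, which inhibits Adamts4, Adamts5 and the sheddase Adam17 as well, and Timp4 fell at 7 dpi. Their promoters are shown to set the sequences of an inhibitor that rose beside those that fell (RefSeq, GRCm38.p6, 250 bases before to 50 bases after the start, 5′ to 3′ on the gene's strand). Capitals mark the GC box GGGCGG, the Sp1 motif, on either strand.
Timp1: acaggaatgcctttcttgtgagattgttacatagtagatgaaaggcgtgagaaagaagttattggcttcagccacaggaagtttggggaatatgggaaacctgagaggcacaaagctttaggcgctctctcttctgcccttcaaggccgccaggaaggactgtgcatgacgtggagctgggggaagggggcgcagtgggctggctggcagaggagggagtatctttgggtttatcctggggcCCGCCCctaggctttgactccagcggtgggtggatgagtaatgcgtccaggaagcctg
Timp2: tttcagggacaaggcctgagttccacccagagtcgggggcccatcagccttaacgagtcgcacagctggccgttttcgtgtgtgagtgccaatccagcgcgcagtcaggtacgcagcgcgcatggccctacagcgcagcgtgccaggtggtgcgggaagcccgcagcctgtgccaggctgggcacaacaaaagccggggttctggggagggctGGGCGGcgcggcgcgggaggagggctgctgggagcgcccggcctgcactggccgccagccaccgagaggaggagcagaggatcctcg
Timp3: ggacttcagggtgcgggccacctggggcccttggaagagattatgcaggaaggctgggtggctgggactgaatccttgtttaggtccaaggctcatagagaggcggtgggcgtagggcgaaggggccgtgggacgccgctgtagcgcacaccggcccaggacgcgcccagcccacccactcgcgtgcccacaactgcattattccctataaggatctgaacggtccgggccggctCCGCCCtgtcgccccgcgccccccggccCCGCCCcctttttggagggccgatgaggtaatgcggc
Timp4: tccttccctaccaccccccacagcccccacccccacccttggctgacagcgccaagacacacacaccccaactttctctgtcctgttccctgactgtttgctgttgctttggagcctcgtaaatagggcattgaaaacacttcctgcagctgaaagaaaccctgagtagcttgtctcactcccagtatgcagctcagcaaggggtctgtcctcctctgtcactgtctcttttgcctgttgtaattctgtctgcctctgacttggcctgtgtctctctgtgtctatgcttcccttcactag
The windows are chrX:20869916-20870215 (plus strand) for Timp1, chr11:118355362-118355661 (minus) for Timp2, chr10:86300162-86300461 (plus) for Timp3 and chr6:115252156-115252455 (minus) for Timp4. Timp2 and Timp3 hold 25 and 24 CG pairs, Timp1 holds 8 and Timp4 holds 2, against a median of 7 over all windows. A GC box occurs in Timp1, Timp2 and Timp3 and in 35.7% of all windows. No exact match to the TGANTCA motif of the chromosome 9 genes is in the 4 windows. Sites that depart from these letters were not searched, and the Timp1 window holds TGAGTAA, close to the motif but not a match. Absence of an AP-1 site cannot be read from this search.

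Timp1 (chromosome X, 20870166-20874735) was at 9.61, 12.8, 9.75, 21.65 and 11.1 CPM in intact nerve, at 102, 135, 76.7, 164 and 175 CPM at 7 dpi and at 39.3, 41.6, 50.9 and 86.2 CPM at 14 dpi. It was higher by 3.33 ± 0.21 (adjusted p = 7.69e-09) at 7 dpi and 1.99 ± 0.21 (adjusted p = 1.06e-05) at 14 dpi, and both injured groups lay wholly above the intact range. With the fibroblast covariate the 14 dpi call was lost (1.18, adjusted p = 0.238). Timp3 (chromosome 10, 86300372-86349506) was at 1450, 1580, 1460, 878 and 1199 CPM in intact nerve, at 506, 484, 416, 377 and 342 CPM at 7 dpi and at 712, 803, 819.8 and 618 CPM at 14 dpi. Every injured library lay below every intact library, with a log2 fold change of -1.62 ± 0.14 (adjusted p = 2.97e-07) at 7 dpi and -0.77 ± 0.15 (adjusted p = 0.00261) at 14 dpi. The 14 dpi call of Timp3 was lost with the fibroblast covariate (-1.14, adjusted p = 0.119), the perineurial covariate (-0.67, adjusted p = 0.101) and in batch 1133 alone (-0.45, adjusted p = 0.515). The spans of Timp1, Timp3 and Timp4 overlap those of the synapsin genes Syn1, Syn3 and Syn2 on the other strand, and Timp2 overlaps Cep295nl on its own strand. Whether any exons overlap was not examined, and the strand setting is not given. Any part of these genes in the Timp counts is therefore not known.

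Timp2 (chromosome 11, 118301069-118355506) was at 293, 238, 293, 441 and 350.0 CPM in intact nerve, at 141, 138, 96.8, 209 and 180.1 CPM at 7 dpi and at 146, 168, 356 and 360.0 CPM at 14 dpi. It fell by 1.09 ± 0.16 (adjusted p = 3.97e-05) at 7 dpi without overlap and was at -0.49 ± 0.17 (adjusted p = 0.0692) at 14 dpi, not called. Timp4 (chromosome 6, 115241892-115252205) was at 34.9, 92.8, 47.8, 82.5 and 35.9 CPM in intact nerve, at 17.1, 16.9, 3.62, 2.21 and 2.85 CPM at 7 dpi and at 34.0, 48.6, 30.7 and 22.6 CPM at 14 dpi. It fell by 3.05 ± 0.49 (adjusted p = 0.00013) at 7 dpi, and at 14 dpi it was at -0.80 ± 0.47 (adjusted p = 0.343), not called. At 7 dpi replicates 1 and 2 stood above the other 3 libraries, and all 5 lay below the intact range. Within batches the difference was -4.19 in batch 1133 and -2.33 in batch 1292.

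**Figure D5:**
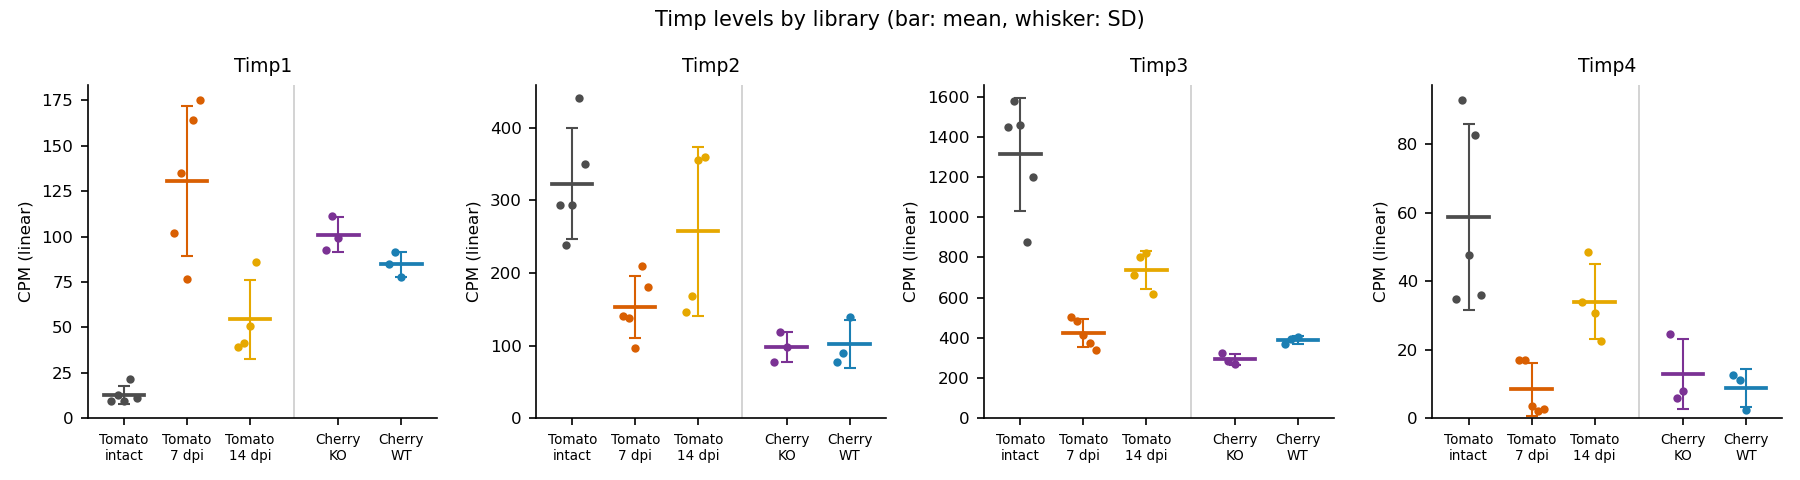
CPM of the 4 Timps (linear y axis from 0) by library, with group means as bars and SD as whiskers. Timp1 averages 12.97, 130.7 and 54.5 CPM in intact, 7 dpi and 14 dpi libraries, and Timp3 averages 1313, 425 and 738 CPM.

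The makeup of the summed inhibitor transcripts differed between stages. Per length Timp3 held a median of 75.9% of the summed Timp FPKM in intact, 34.8% in 7 dpi and 57.5% in 14 dpi libraries. Timp1 held 3.35%, 51.6% and 17.9% at the same stages. The summed Timp level had a median of 403 FPKM in intact nerve, 294 FPKM at 7 dpi and 299 FPKM at 14 dpi, with ranges of 343 to 429, 201 to 322 and 240 to 332 FPKM. The lowest intact library thus lay above every injured library. With the perineurial mean as a covariate, Timp3 at 7 dpi was -1.38 (adjusted p = 0.0968), Timp2 was -0.03 (adjusted p = 0.979) and Timp4 was -0.75 (adjusted p = 0.783), while Timp1 kept its 7 dpi call. In batch 1133 alone Timp2 was at -1.01 (adjusted p = 0.0874).

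Between 14 and 7 dpi, 8 members were called higher and 3 lower of 43, against 5.73% and 4.20% of all genes tested. The median log2 fold change was 0.44 over the members and 0.06 over all genes. The higher ones were Timp4 (2.25 ± 0.49, adjusted p = 0.00778), Timp3 (0.85 ± 0.15, adjusted p = 0.00173), Timp2 (0.60 ± 0.16, adjusted p = 0.0273), Adamtsl3 (2.50 ± 0.44, adjusted p = 0.00173) and Adamtsl5 (1.70 ± 0.26, adjusted p = 0.000609). Adamts15 (1.26 ± 0.25, adjusted p = 0.00433), Adamts5 (1.07 ± 0.25, adjusted p = 0.00998) and Adamts17 (0.98 ± 0.26, adjusted p = 0.0239) were also higher. Mmp9 (-2.35 ± 0.60, adjusted p = 0.0199), Adamts7 (-1.63 ± 0.24, adjusted p = 0.000476) and Timp1 (-1.34 ± 0.21, adjusted p = 0.000735) were lower. Among these called members, the groups did not overlap for Timp3, Timp4, Adamtsl3, Adamts15, Mmp9 and Adamts7. Of the other cell types, 7 of 8 perineurial, 5 of 8 Schwann and 3 of 8 fibroblast markers were higher at 14 dpi as well. With the fibroblast or the perineurial mean as a covariate, 0 members were called higher. Those fits called 142 and 19 genes higher of all 20409 tested, against 1170 without a covariate, so a count of 0 members is not particular to them.

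Calls in this comparison also depended on single libraries. The call of Mmp9 was lost without 14 dpi replicates 1, 2 or 4 (-2.47 to -2.08). That of Timp2 was lost without 14 dpi replicates 2, 3 or 4 or 7 dpi replicates 3 or 5 (0.51 to 0.66), and that of Adamts17 without 14 dpi replicates 2 or 3 or 7 dpi replicates 2, 4 or 5 (0.79 to 0.97). Without the 2 libraries high in macrophage markers, 4 members were called higher and 4 lower. In batch 1133 alone Timp1 was at -1.27 (adjusted p = 0.197), not called.

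Genes that act with these families were counted from lists set for this work. How their Tomato results depend on covariates, batches or single libraries was not examined. Over all genes tested, 15.7% were higher and 16.3% lower at 7 dpi, and every list below had called genes in both directions. Of 13 tested activators and regulators of Mmps, 4 were higher and 4 lower at 7 dpi than in intact nerve. Spock2, a secreted testican, fell by 4.34 ± 0.21 (adjusted p = 4.68e-10), while Itgb3 (2.31 ± 0.21, adjusted p = 4.85e-07), an integrin subunit that docks Mmp2, and Cd44 (2.19 ± 0.15, adjusted p = 1.83e-08), a surface anchor for Mmp9 and Mmp14, rose. Of 9 tested genes of the plasminogen system, whose protease plasmin can activate proforms, 5 were higher and 1 lower. They include the inhibitor Tfpi2 (2.82 ± 0.24), urokinase Plau (1.54 ± 0.19) and its receptor Plaur (1.13 ± 0.19). Of 10 membrane-anchored Adam proteases, 4 were higher and 1 lower, with Adam12 at 3.94 ± 0.30, Adam19 at 2.21 ± 0.16 and Adam33 at -2.05 ± 0.39. Of 11 cathepsins, lysosomal proteases, 5 were higher and 3 lower, with Ctss, which macrophages express strongly, at 6.18 ± 1.62, Ctsk at 1.40 ± 0.25 and Ctsf at -1.14 ± 0.16. Whether the Ctss rise rests on 7 dpi replicate 4, high in macrophage markers, was not tested. Of 13 tested substrates of Adamts proteases and partners, 5 were higher and 2 lower, with the proteoglycan versican (Vcan) at 3.46 ± 0.37 and the fibrillin Fbn2 at 3.05 ± 0.28.

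At 14 dpi against intact nerve, where 6.86% of all genes were higher and 5.09% lower, the same lists had 2 higher and 2 lower of 13 regulators, 3 and 0 of 9 plasminogen genes, 3 and 0 of 10 Adams, 3 and 0 of 11 cathepsins and 4 and 2 of 13 substrates. Vcan was at 3.11 ± 0.37 (adjusted p = 3.3e-05) and Spock2 at -2.60 ± 0.21 (adjusted p = 9.52e-07). Between 14 and 7 dpi, Spock2 was higher (1.73 ± 0.20, adjusted p = 5.31e-05) and Plaur (-1.29 ± 0.20, adjusted p = 0.000724), Plau (-0.75 ± 0.20, adjusted p = 0.0256) and Adam12 (-1.63 ± 0.29, adjusted p = 0.00192) were lower.

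In the comparison of KO with WT lesion endothelium at 7 dpi, Adamts1 was lower and Timp4 higher in KO libraries, and the other members were not called. Of 40 members that passed the filter in the Cherry experiment, 1 was called higher in KO (Timp4) and 1 lower (Adamts1). Over all 16227 genes tested, 0.129% were called higher and 0.179% lower. The median log2 fold change was -0.18 over the members and -0.01 over all genes. Of 53 tested genes of the 5 partner lists, edgeR called 0, with 10 at an unadjusted p under 0.05, and DESeq2 called 4. Among all genes, 1868 of 16227 had an unadjusted edgeR p under 0.05, and DESeq2 called 205 higher and 216 lower of 41027. Adamts1 (chromosome 16, 85793827-85803113), which can bind Vegf and cut versican, was at 328, 540.4 and 456.5 CPM in KO libraries, against 614, 503 and 856 CPM in WT libraries. The groups overlapped over all libraries but not within a batch. In batch 1292 KO replicate 1 stood at 328 CPM, against 614 and 503 CPM in WT replicates 1 and 2, and in batch 1133 KO replicates 2 and 3 stood at 540.4 and 456.5 CPM, against 856 CPM in WT replicate 3. The fitted difference was -0.77 ± 0.11 (adjusted p = 0.0106). It was not called without the batch term (-0.57, adjusted p = 0.926) or without KO replicate 1 (-0.78, adjusted p = 0.262), KO replicate 3 (-0.72, adjusted p = 0.116) or WT replicate 3 (-0.77, adjusted p = 0.227).

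Timp4 was at 24.6, 5.89 and 8.001 CPM in KO libraries, against 12.6, 11.2 and 2.41 CPM in WT libraries. It too split by batch: in batch 1292 KO replicate 1 stood at 24.6 CPM, against 12.6 and 11.2 CPM in WT replicates 1 and 2, and in batch 1133 KO replicates 2 and 3 stood at 5.89 and 8.001 CPM, against 2.41 CPM in WT replicate 3. The fitted difference was 1.26 ± 0.23 (adjusted p = 0.0453). The call was lost without any of the 6 libraries in turn (1.04 to 1.53, adjusted p up to 0.4), without the batch term (0.54, adjusted p = 0.953), with library size alone (1.19, adjusted p = 0.0774) and with the fibroblast covariate (1.23, adjusted p = 0.0805).

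The other Timps and main proteases were not called. Timp3 was at 323, 286 and 271 CPM in KO libraries, against 369.8, 395 and 405 CPM in WT libraries, with -0.39 ± 0.10 (adjusted p = 0.182), and its groups did not overlap. Timp1 was at 92.4, 111 and 99.3 CPM in KO libraries, against 85.01, 91.5 and 78.0 CPM in WT libraries, with 0.25 ± 0.12 (adjusted p = 0.443), again without overlap. Timp2 was at 77.0, 118 and 97.6 CPM in KO libraries, against 77.2, 90.0 and 139.7 CPM in WT libraries, with -0.25 ± 0.12 (adjusted p = 0.449). Per length Timp1 held 52.7% to 57.3% of the summed Timp FPKM in KO libraries, against 41.5% to 48.6% in WT libraries, and Timp3 held 27.7% to 34.6%, against 39.3% to 40.5%. These shares do not overlap, but no test was run on them. KO and WT levels were separate for 2 of 4 tested Timp and 2 of 18 tested Adamts genes. They were separate for 0 of 13 Mmp and 0 of 5 Adamtsl genes. For Plxnd1, also separate, a permutation test gave a 2-sided p of 0.1. In groups of this size a lack of overlap can therefore arise by chance, and nothing is concluded from it. The share of all genes without overlap is not given here.

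Adamts7 was at 112, 102 and 118 CPM in KO libraries, against 89.9, 93.5 and 71.6 CPM in WT libraries, with 0.46 ± 0.12 (adjusted p = 0.171), and Adamts4 was at 153.4, 314 and 378 CPM in KO libraries, against 216, 196 and 391 CPM in WT libraries, with -0.30 ± 0.11 (adjusted p = 0.342). Mmp14 was at 211, 537 and 483 CPM in KO libraries, against 214, 334 and 517 CPM in WT libraries, with -0.20 ± 0.17 (adjusted p = 0.691). Mmp2 was at 71.4, 177 and 105 CPM in KO libraries, against 61.1, 101 and 195 CPM in WT libraries, with -0.33 ± 0.29 (adjusted p = 0.71). For both Mmp genes the KO and WT ranges overlapped widely. Adamts14, although at 3.56, 3.85 and 4.97 CPM in KO libraries, against 1.56, 2.40 and 0.777 CPM in WT libraries, was not called (1.62 ± 0.47, adjusted p = 0.23), and Mmp9, at 1.70, 2.55 and 3.87 CPM in KO libraries, against 0.506, 0.601 and 2.13 CPM in WT libraries, was not either (1.06 ± 0.43, adjusted p = 0.384).

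The Cherry WT libraries are another sort of lesion endothelium at 7 dpi, and they held fewer fibroblast and perineurial transcripts than the Tomato libraries of the same day. The experiments were normalized separately, so their levels are set side by side as a description, with no test. Of 29 members with a mean of at least 5 CPM in Tomato 7 dpi libraries, 17 had a Cherry WT mean between 0.5 and 2 times the Tomato mean, 5 between 0.25 and 0.5 times and 7 below 0.25 times. The 29 were picked by their Tomato level, which favours low ratios, so these counts cannot show a direction. Those within that range include Adamts4 (268 CPM in Cherry WT and 208 CPM in Tomato 7 dpi), Adamts7 (85.01 and 76.1 CPM), Adamts18 (16.9 and 13.1 CPM), Adamts1 (658 and 644 CPM), Timp3 (389.8 and 425 CPM) and Mmp14 (355 and 491 CPM). Timp1 averaged 84.8 CPM in Cherry WT and 130.7 CPM in Tomato 7 dpi. The lowest ratios belonged to Mmp12 (0.29 and 5.79 CPM), Adamtsl5 (1.70 and 23.6 CPM), Adamts14 (1.58 and 18.2 CPM) and Mmp9 (1.08 and 12.2 CPM). The Tomato mean of Mmp12 rests on 7 dpi replicate 4, high in macrophage markers (26.2 CPM, other 7 dpi libraries at most 1.42 CPM). Adamts2 (21.2 and 183 CPM), Adamtsl4 (5.26 and 28.6 CPM) and Adamtsl3 (1.63 and 8.56 CPM) followed, and Mmp2 averaged 119 and 357 CPM. Reporter, sort and cell makeup differ together between the experiments and cannot be told apart.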

How the data were processed

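Polyadenylated RNA of sorted nerve endothelial cells was sequenced in 14 Tomato and 6 Cherry libraries. The authors deposited raw counts of reads per gene, per the file headers, and for the Cherry libraries also counts they had corrected for batch with ComBat-Seq. Trimmomatic 0.39, STAR 2.5.3a, featureCounts 1.6.4 and mm10/GRCm38 are named in the submitters' processing notes; strand setting and multi-mapped reads: not given in the sources used here. The raw counts were tested with edgeR 4.0.16 (R 4.3.3), with the filterByExpr filter, TMM scaling, a batch term, a robust quasi-likelihood fit and Benjamini-Hochberg adjustment over all genes at 0.05, with Tomato and Cherry libraries fitted apart. SE is the log2 fold change over the square root of F. FPKM is CPM per kilobase of exon. Within-batch differences used a pseudocount of 0.5 CPM. A covariate is the mean of log2 CPM over the genes of its list, with a pseudocount of 1 CPM. The fit was tested on simulated data. Alternatives used DESeq2 1.42.0 and other scalings, filters, covariates and sets of libraries. Members called in any comparison, or averaging at least 20 CPM in a group, are given per library, and of other lists at most the 3 greatest called changes with average log2 CPM of at least 3. The members and lists were chosen with earlier results of these data known. Counts of 32 replicate pairs differed by more than sampling noise (chi-square per degree of freedom 15.4 to 121). Overlaps with other genes are not reported here for every member.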

Additional observations from a re-analysis of the deposited data

Results flagged for a closer look

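Of 129 groups of 4 or 5 libraries, 16 held a library far from the others by Dixon's criterion. Its chance rate of about 1 of 20 groups assumes normally spread values. Low CPM values can be skewed and the genes share libraries, so 16 of 129 cannot be read against that rate. Intact replicate 5 was highest for 6 genes: Adamts16 (5.56 CPM, others at most 1.14), Adamts19 (1.94, others at most 0.465), Adamts20 (3.88, others at most 0.680), Mmp13 (0.559, others at most 0.102), Mmp16 (4.94, others at most 2.40) and Mmp17 (2.53, others at most 1.02). Intact replicate 2 was highest for 4: Mmp2 (94.9 CPM, others at most 45.7), Adamts4 (109, others at most 48.1), Adamts12 (24.7, others at most 12.7) and Adamts18 (5.78, others at most 2.64). Intact replicate 4 was highest for Timp1 (21.65 CPM, others at most 12.8).

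Among injured libraries, Mmp12 was highest in 7 dpi replicate 4 (26.2 CPM, others at most 1.42) and 14 dpi replicate 3 (115 CPM, others at most 0.680), the libraries with the highest macrophage marker sums. Mmp13 was highest in 7 dpi replicate 3 (10.2 CPM, others at most 2.15) and Adamts5 in 7 dpi replicate 2 (19.9 CPM, others at most 15.3). Adamts7 was lowest in 14 dpi replicate 1 (19.4 CPM, others at least 26.1).

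The effects at 14 dpi and 7 dpi against intact nerve differed in the edgeR fit for 11 members. The difference (14 dpi minus 7 dpi, log2) was 2.50 for Adamtsl3, 2.25 for Timp4, 1.70 for Adamtsl5, 1.26 for Adamts15, 1.07 for Adamts5, 0.98 for Adamts17, 0.85 for Timp3 and 0.60 for Timp2. It was -2.35 for Mmp9, -1.63 for Adamts7 and -1.34 for Timp1.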

How the results depend on the processing

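Of 56 called member results, 5 kept their call under every alternative run, and 14 lost it in some fit that left out 1 library. For 7 dpi against intact nerve (18 higher, 8 lower), the perineurial covariate left 3 and 0, and batch 1133 alone left 5 lower. Among all genes the perineurial covariate left 268 higher and 113 lower and batch 1133 alone 926 lower, against 3202 and 3333 in the main fit. For 14 dpi against intact nerve (16 higher, 1 lower), the fibroblast covariate left 2 higher and the macrophage covariate 9. The count lower was 2 with RLE scaling, library size alone, no filter or the Y gene covariate, and 4 with DESeq2. It was 3 in batch 1292 or with the 2 groups alone, and 0 with the perineurial covariate or in batch 1133. Among all genes the fibroblast covariate left 125 higher and the macrophage covariate 972, against 1401 in the main fit. For 14 against 7 dpi (8 higher, 3 lower), the count higher was 13 with no filter, 0 with the fibroblast or perineurial covariate, 4 in batch 1133, 1 in batch 1292 and 4 without the 2 macrophage-high libraries, an alternative chosen after seeing the data. The count lower was 5 with DESeq2, 1 with the perineurial covariate or in batch 1133 and 6 with the 2 groups alone. Among all genes the fibroblast and perineurial covariates left 142 and 19 higher, against 1170 in the main fit. For KO against WT (1 each way), the count higher was 0 with library size alone, no batch term or the fibroblast covariate, 2 with DESeq2 and 3 with the ComBat-Seq counts. The count lower was 2 with DESeq2, 0 with no batch term and 3 with the ComBat-Seq counts. Counts over all genes moved likewise, from 21 higher and 29 lower in the main fit to 3 and 2 with no batch term. They were 205 and 216 with DESeq2 and 305 and 245 with the ComBat-Seq counts. With 1 library left out, member counts ran from 14 to 18 higher and 7 to 9 lower at 7 dpi. They ran from 12 to 16 and 1 to 2 at 14 dpi and from 6 to 10 and 2 to 5 between 14 and 7 dpi. In KO they stayed at 0 higher with 0 to 1 lower. Plxnd1 ran from -1.36 to -1.10. With the perineurial covariate 6 results at 7 dpi changed sign: Adamts12 (-0.29), Adamtsl3 (1.42), Adamtsl4 (0.76), Adamtsl5 (0.50), Mmp13 (-2.77) and Mmp3 (-1.97). For the other changes the cause was not tested. Library size alone moved the median log2 fold change of all genes at 7 dpi to -0.17 and DESeq2 to -0.32, from -0.10 with TMM. No paired analysis was possible because the labels give the groups no shared replicate number, and the numbers used here only name libraries. The 8 Tomato members under the count filter reached at most 1.19 CPM and were not tested with the filter.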
